A study of Drosophila melanogaster with 20 samples.

Results

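Of the 3463 chromatin sites at which the ecdysone receptor EcR was tabulated in the fruit fly, 537 carried a peak in the wing and in the leg and none in the salivary gland. They were chosen by the authors' overlap flags: a site had to overlap a supernatant peak of the wing and one of the leg, and no supernatant peak of the gland. Sites on chromosomes 4, Y and M, and those towards the centromeres (2L from 22 Mb, 3L from 23 Mb, 3R below 4.5 Mb and X from 22 Mb), were left out. That removed 48 sites with the same flags, 26 of them on 3R, and left 3032 sites of all kinds on the arms. The peak calls of the 3 tissues therefore define these disc-shared sites, and their difference from the gland is a description of how they were chosen, not a result.

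EcR is a nuclear receptor that pairs with Ultraspiracle, binds DNA and responds to the steroid hormone ecdysone by switching target genes on or off. At the end of larval life, pulses of ecdysone start metamorphosis. Wing and leg imaginal discs then evert and build adult structures. The larval salivary gland instead secretes glue and is destroyed by programmed cell death after the puparium has formed.

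All the EcR libraries came from female wandering larvae at -6hAPF, that is 6 hours before puparium formation, of the genotype w; EcR-GFSTF / Df(2R)BSC313. One copy of EcR in these animals is Flag-tagged and faces a deficiency on the homologue, and all 3 tissues share that background. No untagged tissue is part of the Flag groups. Binding was profiled by CUT&RUN with the anti-Flag M2 antibody, in which a nuclease tethered by the antibody releases DNA fragments around the bound protein. Wing, leg and salivary gland each gave a supernatant group (released fragments) and a pellet group (fragments left behind), with 2 libraries in each of the 6 groups. Each preparation pooled at least 90 wings or legs, or at least 50 salivary glands. The labels do not say whether the 2 libraries of a group came from separate dissections. Another 8 IgG libraries, 2 from glands of the tagged genotype and 6 from wild-type wings, were not analysed here. Judging by the peak names, pooled IgG from wings served as the control of every list, also of the gland's, but the labels do not say so.

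The deposited peak lists pool the libraries of a group, and the deposited comparison tables give 1 value per site, so values per library were not analysed here and depth per library is unknown. Fold enrichment (peak over control, linear) and q-values below are the authors' own for each peak, and they rank peaks within a list only. In a tissue sample, fewer cells with a bound site and less binding per cell cannot be told apart.

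The disc-shared sites, as these 537 are called here, were spread over the arms, with 103 on 2L, 85 on 2R, 143 on 3L, 139 on 3R and 67 on X. The X held 12.5% of them and 17.7% of all sites on the arms. Their median width was 236 bp (90 to 1613 bp), and their median mean normalised count over libraries was 14.96 (4.46 to 415) in the authors' deposited tables. The midpoint lay inside the annotated span of a coding gene at 360 sites (67.0%, exact 95% interval 62.9 to 71.0%, counting error only), against 69.9% of all sites on the arms. Within 500 bp of either end of a span lay 47 disc-shared sites (8.75%), against 12.9% of all sites. Outside all spans, 78 lay over 5000 bp from any coding gene. The gene table used gives spans without strand, exons or UTRs, so a site is placed as inside a span or by its distance from it. Of the disc-shared sites, 218 (40.6%) had another one within 5000 bp, and 56 had a site of the gland alone within that distance.

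The wing supernatant fold enrichment had a median of 7.02 (quartiles 5.26 and 10.9, range 1.95 to 43.6), and that of the leg a median of 8.08 (quartiles 5.85 and 12.1, range 1.98 to 47.2). At 112 sites both were 10 or more. Across the 537 sites the log2 fold enrichments of wing and leg correlated with Pearson r = 0.722 and Spearman rho = 0.659, a description over sites that share libraries, site width and, by their names, a control. The summits of the wing and leg peaks lay a median of 21 bp apart. They were within 50 bp at 421 sites (78.4%) and over 200 bp apart at 9. At the 350 sites of all 3 tissues the wing and leg summits lay a median of 17 bp apart, and within 50 bp at 276. Closeness was thus not particular to the disc-shared sites, and both peaks had to overlap the same site.

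**Figure D1:**
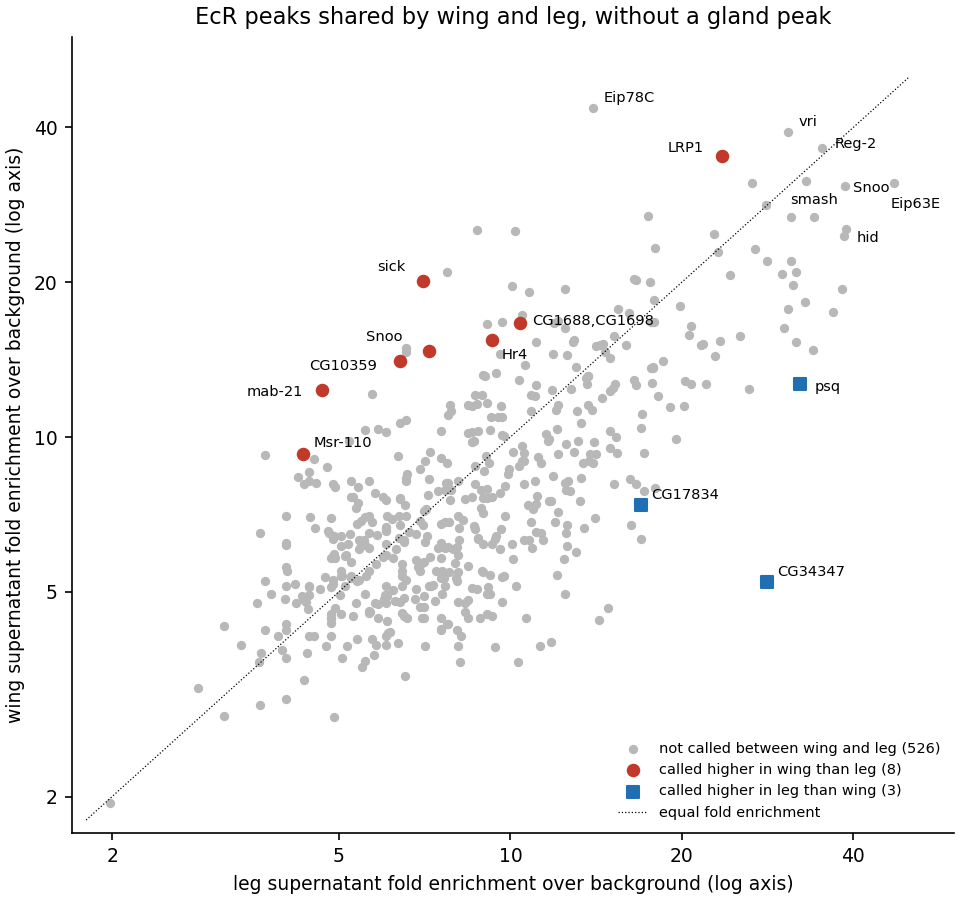
Wing supernatant fold enrichment (vertical, log axis) against leg supernatant fold enrichment (horizontal, log axis) of the 537 disc-shared sites, 1 point per site, with the authors' values from pooled libraries. Red points are the 8 sites called higher in wing than leg, blue squares the 3 called higher in leg than wing, and the dotted line marks equal enrichment; Eip78C has the highest wing value (43.6) and the site near Eip63E the highest leg value (47.2).

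Several of the strongest sites lay in or near genes of the ecdysone response, a list chosen with earlier results of these data known. Inside the span of Eip78C, which encodes an ecdysone-induced nuclear receptor, a site at 3L:21252542-21252893 (dm6, 1-based, as all coordinates here) had a fold enrichment of 43.6 in the wing, the highest of the wing list among these sites, and 14.0 in the leg. Between Eip63E (a cyclin-dependent kinase gene induced by ecdysone) and ImpE2 (an ecdysone-inducible gene of imaginal discs), the site at 3L:3514239-3514531 reached 31.2 in the wing and 47.2 in the leg, the highest leg value. A site 880 bp outside vri, a bZIP transcription factor gene, had 39.1 in the wing and 30.7 in the leg. Kr-h1, a zinc-finger gene of the juvenile hormone response, held a site at 2L:6086826-6087534 with 14.8 in the wing and 34.0 in the leg.

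The other sites among the 10 strongest of either disc follow. At smash, which encodes a scaffold of epithelial junctions, fold enrichment was 31.5 in the wing and 33.1 in the leg. Inside Snoo, a corepressor gene of the Dpp pathway, the site at 2L:7911125-7911443 had 30.8 in the wing and 38.6 in the leg. The site at nmo (3L:7984893-7985222), a kinase gene of Wnt signalling and planar polarity, had 31.1 in the wing and 26.6 in the leg. At E2f1, a transcription factor gene that drives S-phase entry, the strongest site (3R:21658373-21658725) had 26.9 in the wing and 17.5 in the leg. A site 5352 bp from hid, an activator of programmed cell death, had 25.4 in the wing and 38.8 in the leg. The type I Dpp receptor gene tkv held a site (2L:5253363-5253848) with 17.5 in the wing and 36.8 in the leg. The wing list's 10 strongest also took in sites near Reg-2 (36.4), in LRP1 (35.2) and in Mur2B (28.2). The leg list's 10 strongest took in Spn100A (38.5), CG9628 (38.2), Reg-2 (35.3) and Dyrk2 (34.2). The 2 lists of 10 shared 4 sites: those at Reg-2, smash, Eip63E and Snoo.

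At the other end, the weakest peaks of members were close to the calling limit. A wing peak at Ankle2 had a fold enrichment of 2.86 and a −log10 q of 1.34, and a leg peak at tkv (2L:5252532-5252718) had 2.83 and 1.58. Just outside the rule, a site in tou had fold enrichments of 9.27 in the wing and 9.28 in the leg, and it was left out by a gland peak of 3.29 with a −log10 q of 1.41. At the site near vers, which had 15.1 in the wing and 7.26 in the leg, the gland peak was 3.44 with a −log10 q of 1.85.

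The comparisons with the gland are set out next, with the caution that the gland peak calls chose the sites. Both comparisons are against the gland, so they are not independent, though the labels do not say which libraries were fitted. In the authors' deposited table of wing over gland, the 537 sites had a median log2 fold change of 1.32 (-1.03 to 4.31), and 335 were called higher in wing at an adjusted p under 0.05, where 28.7% of all tested sites were called so. In the authors' deposited table of leg over gland, the median was 1.32 (-0.89 to 4.24), and 320 were called higher in leg, where 29.6% of all tested sites were called so. The medians of all sites on the arms were 0.19 for wing over gland and 0.39 for leg over gland in the same deposited tables. After every comparison was centred on the arms' median, 277 were called higher in wing (23% of all tested sites) and 198 higher in leg (17.9% of all tested sites). Since the rule asked for no gland peak, nothing is read from these shares.

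**Figure D2:**
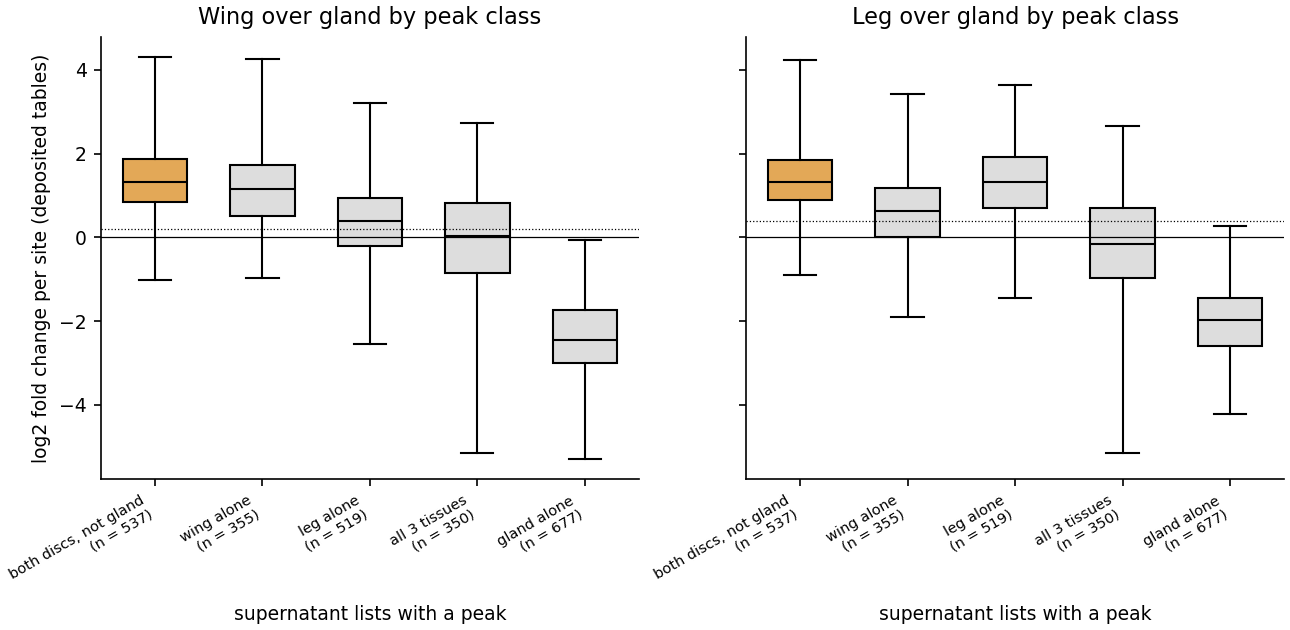
Log2 fold change per site of wing over gland (left) and leg over gland (right) in the authors' deposited tables, by the supernatant lists that hold a peak at the site; boxes span the quartiles, the line is the median and whiskers run to the lowest and highest site, the solid line is 0 and the dotted line the median of all 3032 sites on the arms. The 537 disc-shared sites (orange) have a median of 1.32 in both panels and reach below 0 in each; the peak calls that define the classes come from these tissues, so the plot is a description.

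How far single sites differed from the gland varied widely. The highest pair of values was at Ppn, the gene of the matrix protein Papilin, where the site at 3R:28536533-28536736 had a log2 fold change of 4.31 ± 0.76 (standard error) for wing over gland and 4.24 ± 0.77 for leg over gland in the authors' deposited tables. Its peaks were modest, with fold enrichments of 5.93 in the wing and 4.91 in the leg, and its mean count was 11.98 in the authors' deposited tables. The next Ppn site, at 3R:28536893-28537244, had higher fold enrichments, 26.7 in the wing and 31.1 in the leg. Its log2 fold changes against the gland were 2.15 ± 0.34 for wing and 2.26 ± 0.36 for leg in the authors' deposited tables. A site 7205 bp from Eip93F, an ecdysone-induced transcription factor gene of metamorphosis, had 3.15 ± 0.72 for wing over gland and 3.03 ± 0.74 for leg over gland in the authors' deposited tables. The others of the 10 highest lay in jar, which encodes myosin VI, or nearest to CG33110, Tollo, CG5693, CG16721, CG44174, Eaf6 and CG9380. Of those 10, the sites at jar and CG5693 had the lowest means, of 5.1 and 5.6 normalised counts in the authors' deposited tables.

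Absence of a gland peak did not always go with a lower gland value. Wing over gland was below 0 at 28 sites and leg over gland at 30, in the authors' deposited tables. In tara, a transcriptional coregulator gene, a site at 3R:16228930-16229097 had log2 fold changes of -0.85 ± 0.36 for wing over gland (adjusted p = 0.0352) and -0.89 ± 0.38 for leg over gland (adjusted p = 0.0411) in the authors' deposited tables. It was the only one of the 537 called higher in the gland in each comparison, where 26.4% of all tested sites were called higher in gland than wing and 22.7% higher in gland than leg. A second tara site, at 3R:16242404-16242693, had -1.03 ± 0.55 for wing over gland and was not called (adjusted p = 0.105) in the authors' deposited table. Both of these sites overlapped a peak of the gland pellet, described next.

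Pellet peaks played no part in the rule. A wing pellet peak overlapped 436 disc-shared sites (81.2%, exact 95% interval 77.6 to 84.4%), a leg pellet peak 225 (41.9%, 37.7 to 46.2%) and a gland pellet peak 20 (3.72%, 2.29 to 5.69%). These intervals cover counting error only. When the larger part of the site had to overlap, the leg pellet share was 25.7% and the gland pellet share 1.68%. Among sites with a −log10 q of 10 or more in both discs, the leg pellet share was 69.96% and the gland pellet share 6.01%. Among the 350 sites with a supernatant peak in all 3 tissues the shares were 92.9% for the wing pellet, 72.3% for the leg pellet and 69.1% for the gland pellet. Over all sites on the arms they were 40.7% for the wing, 22.96% for the leg and 29.1% for the gland. The pellet lists of the tissues differ in length, so the shares of wing and leg do not compare binding in the pellet between them.

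**Figure D3:**
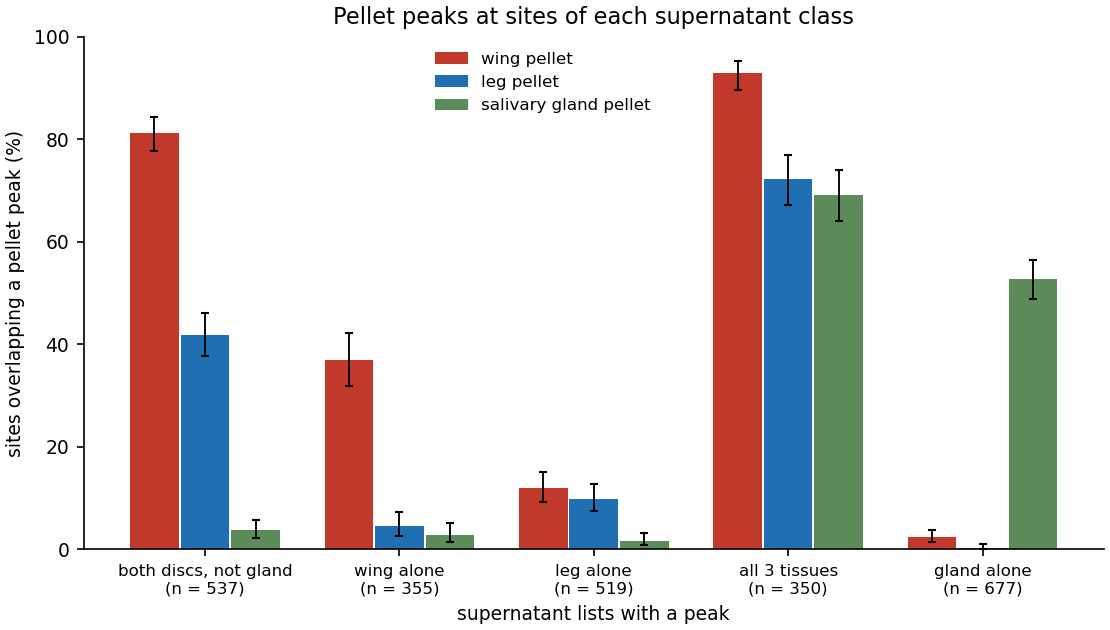
Share of sites (%) that overlap a peak of the wing, leg or salivary gland pellet list by at least 1 bp, for sites grouped by the supernatant lists with a peak; error bars are exact 95% binomial intervals, which cover counting error only. The disc-shared sites (leftmost) had a wing pellet peak in 81.2%, a leg pellet peak in 41.9% and a gland pellet peak in 3.72%, while 52.7% of the sites of the gland alone had a gland pellet peak.

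The median supernatant peak was higher where both discs also had a pellet peak. The 213 sites with wing and leg pellet peaks had median supernatant fold enrichments of 10.2 in the wing and 12.5 in the leg. The 89 with neither had 4.95 in the wing and 5.85 in the leg. The 223 with a wing pellet peak alone had 6.92 in the wing and 7.06 in the leg, and the 12 with a leg pellet peak alone had 4.81 in the wing and 9.44 in the leg. Their mean counts were ordered likewise at the ends, with medians of 24.7 for both pellets and 8.38 for neither in the authors' deposited tables, and the part of read number in these shares was not tested. The highest pellet value of each disc was at 1 site in Dyrk2 (2L:14207570-14208018), a protein kinase gene, with 23.1 in the wing pellet and 21.8 in the leg pellet. Its supernatant values were 26.7 in the wing and 34.2 in the leg.

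The 20 sites with a gland pellet peak had a median log2 fold change of 0.52 for wing over gland and 0.39 for leg over gland in the authors' deposited tables, with 7 of them below 0 for wing and 8 for leg. The 517 without one had medians of 1.36 for wing over gland and 1.35 for leg over gland in the authors' deposited tables. The strongest gland pellet peaks were the 2 in tara, with fold enrichments of 9.87 and 6.52. CG14434 followed with 6.24, then shn, a zinc-finger gene of the Dpp pathway, with 6.14, and a site 13649 bp from CG9380 with 6.12. Strong disc sites were among the 20 as well: smash had a gland pellet peak of 4.87 and LRP1 one of 4.68.

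Wing against leg is the comparison between the 2 discs, with the gland on neither side. At 11 of the 537 sites the discs were called different. In the authors' deposited table of wing over leg the median log2 fold change was 0.015 (-2.11 to 1.62), against -0.19 for all sites on the arms, with 275 sites above 0 and 262 below. At an adjusted p under 0.05, 8 were called higher in wing, where 0.571% of all tested sites were called so, and 3 higher in leg, where 0.902% of all tested sites were called so. The members called make up 1.49% for wing and 0.559% for leg of the 537. After centring on the arms' median the split was 15 higher in wing (1.39% of all tested sites) and 2 higher in leg (0.491% of all tested sites), with 10 of the 11 deposited calls among them. Centred values were adjusted over 3459 sites, the deposited ones over 3327. At an adjusted p under 0.01 the split was 2 higher in wing (0.331% of all tested sites) and 2 higher in leg (0.271% of all tested sites). The rule asked for a peak in both discs, so these shares say nothing particular about the class. A site that was not called is not thereby shown to be equal: the median standard error of this comparison was 0.406 on the log2 scale in the authors' deposited table.

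**Figure D4:**
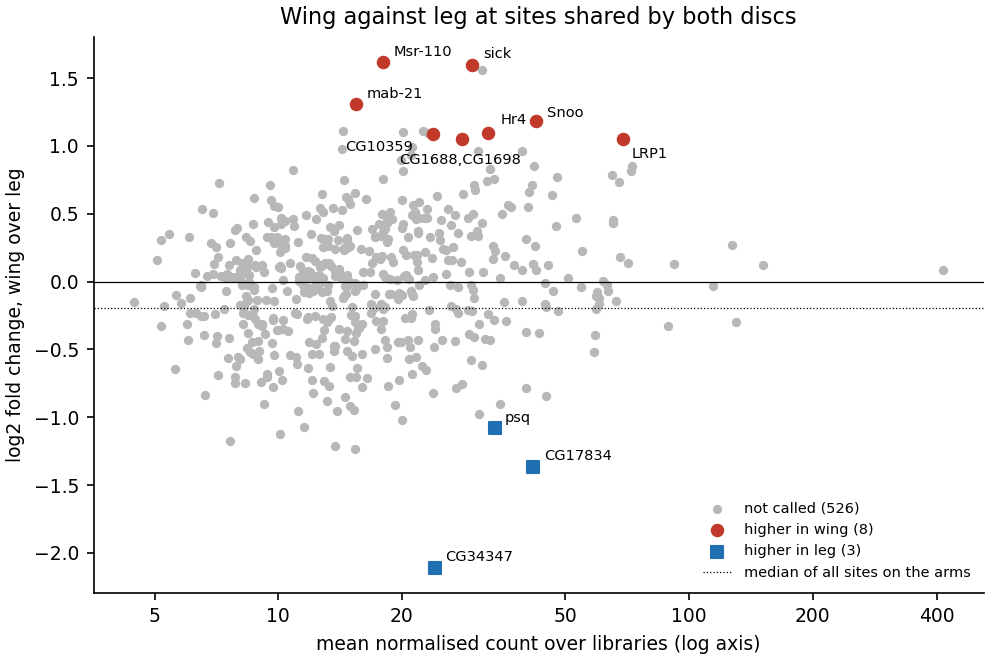
Log2 fold change of wing over leg (vertical) against mean normalised count over libraries (horizontal, log axis) of the 537 disc-shared sites in the authors' deposited tables. Red points are the 8 sites called higher in wing and blue squares the 3 called higher in leg at an adjusted p under 0.05, each labelled with the gene it lies in or nearest to; the dotted line is the median of all sites on the arms (-0.19).

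Higher in wing by the smallest adjusted p was a site in sick (2L:19905714-19906039), a gene of actin regulation. Its fold enrichment was 20.1 in the wing and 7.03 in the leg, and the log2 fold change was 1.60 ± 0.29 (adjusted p = 1.63e-05) in the authors' deposited table. The nuclear receptor gene Hr4, part of the ecdysone cascade, held 3 disc-shared sites within 2000 bp, all inside its span. The one at X:1971561-1971856 had 15.4 in the wing and 9.27 in the leg, with a log2 fold change of 1.10 ± 0.26 (adjusted p = 0.00643) in the authors' deposited table. Its neighbour at X:1970594-1970977 had 0.50 ± 0.35 (adjusted p = 0.61), and that at X:1948773-1949086 had -0.41 ± 0.28 (adjusted p = 0.58) in the authors' deposited table. Whether these sites of 1 gene differ from each other was not tested.

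Snoo also held a called site beside others that were not called. That at 2L:7962242-7962593 had 14.7 in the wing and 7.19 in the leg, and a log2 fold change of 1.19 ± 0.33 (adjusted p = 0.0333) in the authors' deposited table. The stronger Snoo site at 2L:7911125-7911443 had -0.08 ± 0.29 (adjusted p = 0.955) in the authors' deposited table. In LRP1, a lipoprotein receptor gene, the site at 2R:8195415-8196149 had 35.2 in the wing and 23.5 in the leg, with 1.05 ± 0.26 (adjusted p = 0.0103) in the authors' deposited table. The largest log2 fold change towards wing, 1.62 ± 0.44 (adjusted p = 0.0254) in the authors' deposited table, was in Msr-110 (3L:5571478-5571693), where fold enrichment was 9.29 in the wing and 4.33 in the leg. The other 3 lay 3595 bp from mab-21, in CG10359, and in the overlapping genes CG1688 and CG1698, with log2 fold changes of 1.31, 1.09 and 1.05 in the authors' deposited table.

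Higher in leg were 3 sites. The largest difference among the 537 was 2354 bp from CG34347 (3R:31308649-31308958), where fold enrichment was 5.23 in the wing and 28.2 in the leg. Its log2 fold change of wing over leg was -2.11 ± 0.40 (adjusted p = 8.63e-05) in the authors' deposited table. It had a leg pellet peak of 7.58 and no wing pellet peak. In CG17834 (2L:8529554-8529875) the peaks were 7.38 in the wing and 16.9 in the leg, with -1.36 ± 0.33 (adjusted p = 0.00654) in the authors' deposited table. In psq (2R:10598036-10598350), which encodes the BTB transcription factor Pipsqueak, they were 12.7 in the wing and 32.2 in the leg, with -1.08 ± 0.27 (adjusted p = 0.0103) in the authors' deposited table. After centring, that in psq was not called (adjusted p = 0.0544). Near CG34347 the values against the gland were 0.89 ± 0.50 for wing and 3.00 ± 0.51 for leg in the authors' deposited tables.

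Some log2 fold changes above 1 were not called. The site in grh, an epithelial transcription factor gene, at 2R:17806452-17806886 had 25.2 in the wing and 10.2 in the leg, with a log2 fold change of 1.56 ± 0.47 (adjusted p = 0.057) in the authors' deposited table. At E2f1 the site 3R:21644994-21645263 had 19.6 in the wing and 10.1 in the leg, with 1.10 ± 0.33 (adjusted p = 0.054) in the authors' deposited table. The site in Eip78C with the highest wing fold enrichment of the 537 had a smaller value, 0.85 ± 0.37 (adjusted p = 0.27), in the authors' deposited table. Its fold enrichments, 43.6 in the wing and 14.0 in the leg, rank it within each list only.

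A few genes gathered many disc-shared sites. Within 2000 bp of a site lay 364 coding genes, of which 264 had 1 disc-shared site, 61 had 2, 22 had 3 and 17 had 4 or more. At 112 sites no coding gene lay that close. Of the 364, 69 also had a site of the gland alone and 73 a site shared by all 3 tissues. Eip75B, an ecdysone-induced nuclear receptor gene (3L:17950953-18064696), and brat (2L:19133816-19179758), which encodes a translational repressor that limits growth, had 8 each.

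The 2 genes differed in what else they held. Eip75B had 57 sites in all, 23 of them shared by the 3 tissues and 15 of the gland alone, so its disc-shared sites stood among gland sites. The brat locus had 20 sites, 5 shared by the 3 tissues and none of the gland alone. At Eip75B the wing fold enrichment of the 8 sites was 6.45 to 17.3 and that of the leg 5.83 to 17.8. At brat it was 4.76 to 23.3 in the wing and 3.60 to 17.9 in the leg. Against the gland, log2 fold changes at brat were 1.22 to 2.45 for wing and 1.09 to 2.02 for leg, and at Eip75B 0.34 to 3.08 for wing and -0.31 to 2.25 for leg, in the authors' deposited tables.

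**Figure D5:**
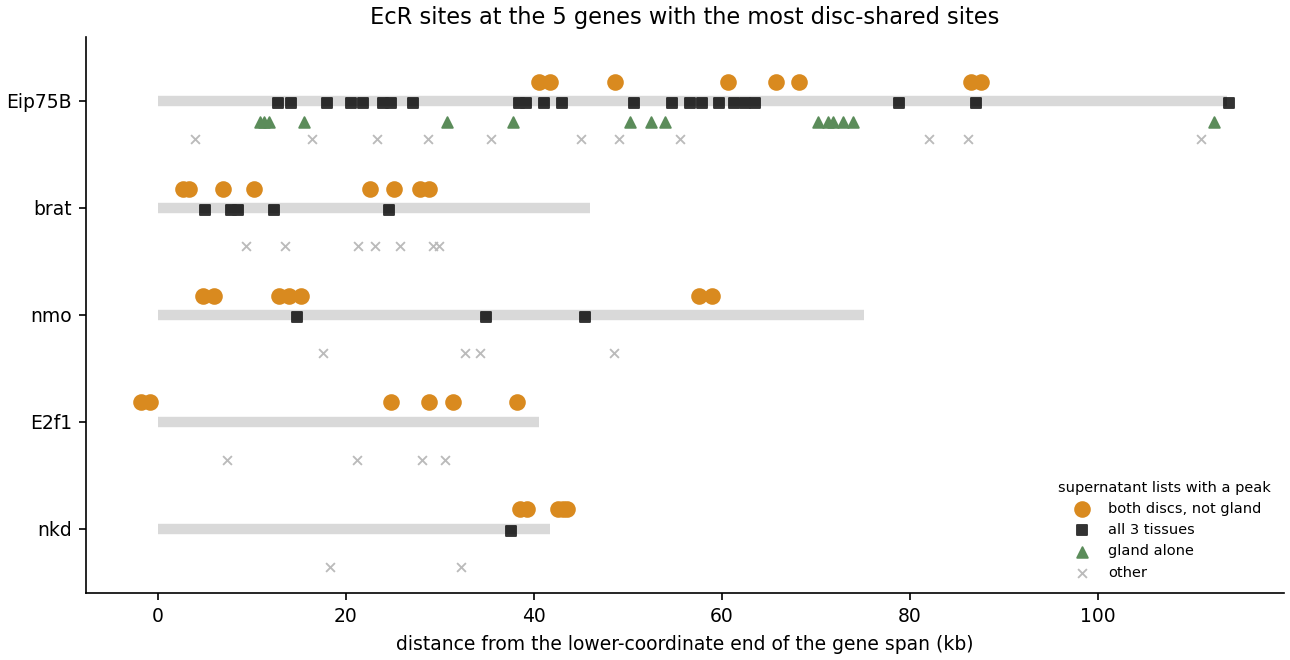
Positions of EcR sites at the 5 genes with the most disc-shared sites, in kb from the lower-coordinate end of each gene's annotated span (grey bar, strand not shown). Orange circles are disc-shared sites, black squares sites of all 3 tissues, green triangles sites of the gland alone and grey crosses other sites; Eip75B mixes all kinds, while brat, nmo, E2f1 and nkd show none of the gland alone.

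The kinase gene nmo had 7 disc-shared sites among 14, with wing fold enrichments of 4.86 to 31.1 and leg ones of 6.46 to 26.6. Of these, 2 neighbouring sites had a gland pellet peak, and one of them, at 3L:7991896-7992052, had -0.34 ± 0.41 for wing over gland and -0.88 ± 0.45 for leg over gland in the authors' deposited tables. E2f1 had 6 of 10, of which 1 lay in the neighbouring insulin receptor gene InR and 1 between the genes. All 6 had positive wing over leg values, 0.26 to 1.10, none called, in the authors' deposited table. The gene nkd, an inhibitor of Wingless signalling, had 5 of 8, and 3 of them lay 852 to 1817 bp outside its span.

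The other genes with 4 were CG1677, CG46304, the overlapping CG46467 and Glut4EF, Mur2B, Snoo, Syp, drn, grh, hth, jing and vri. The 4 sites of grh were among 9 with no site of the gland alone or of all 3 tissues. Their wing over leg values were 0.27 to 1.56 in the authors' deposited table. At jing, a zinc-finger gene, the 4 sites had 1.64 to 2.18 for wing over gland and 1.28 to 1.96 for leg over gland in the authors' deposited tables. The sites of CG1677 had -0.72 to 0.89 for wing over gland and -0.58 to 1.25 for leg over gland in the authors' deposited tables. At drn they were 0.80 to 1.28 for wing and 1.19 to 2.19 for leg in the authors' deposited tables.

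Gene lists chosen with earlier results of these data known place the sites in pathways. Of 241 listed genes, 45 had a disc-shared site within 2000 bp, and all 241 were found in the gene table, in which 364 of 13962 coding genes had one. The lists also hold a microRNA gene, and many listed genes had a site of some kind. The share among all genes with a site of any kind is not given here, so no enrichment is read from these counts. In the ecdysone response, 14 of 29 genes had a disc-shared site. These were EcR itself, br, Eip75B, Eip78C, Hr3, Hr4, Kr-h1, Blimp-1, vri, tai, E23, Eip63E, ImpE2 and ImpE3. They held 31 disc-shared sites. The 29 genes held 201 sites of any kind, which lay at 24 of them. Of all 3032 sites on the arms, 537 were disc-shared, so the list was rich in sites of every kind and no concentration of disc-shared sites is read from it. Of the 31, 23 were called higher in wing than gland and 18 higher in leg than gland, with medians of 1.44 for wing and 1.42 for leg in the authors' deposited tables. Of all 537 disc-shared sites, which the gland peak calls chose, 62.4% were called higher in wing than gland and 59.6% higher in leg than gland, with a median of 1.32 each. Over all tested sites these shares were 28.7% for wing and 29.6% for leg. Nothing is read from the counts against the gland of this list or of those below.

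Members of that list varied. Blimp-1, an ecdysone-induced repressor gene, had a site 957 bp outside its span with 6.07 in the wing and 10.9 in the leg, and log2 fold changes of 2.67 ± 0.64 for wing over gland and 2.72 ± 0.65 for leg over gland in the authors' deposited tables. The single disc-shared site of EcR, at 2R:6148044-6148478, had 6.16 in the wing and 5.46 in the leg, with 1.24 ± 0.54 for wing over gland (adjusted p = 0.043) and 0.62 ± 0.58 for leg over gland (adjusted p = 0.35) in the authors' deposited tables. The 2 sites in tai, a coactivator gene of the receptor, had -0.12 and -0.12 for wing over gland and -0.36 and 0.23 for leg over gland in the authors' deposited tables. At br, the Broad transcription factor gene, the stronger of 2 sites lay in the span of Mur2B and within 2000 bp of br, with 28.2 in the wing and 28.1 in the leg.

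Signalling pathways of disc growth and patterning followed. For Dpp and Hedgehog, 5 of 16 genes had a disc-shared site (tkv, brk, shn, Dad and dally), with 9 sites, of which 6 were called higher in wing than gland (62.4% of all 537 and 28.7% of all tested sites) and 5 higher in leg than gland (59.6% of all 537 and 29.6% of all tested sites). The strongest tkv site, at 2L:5253363-5253848, had 2.09 ± 0.39 for wing over gland, 2.93 ± 0.41 for leg over gland and -0.84 ± 0.29 for wing over leg (adjusted p = 0.112) in the authors' deposited tables. The 2 sites in dally, a glypican gene, had 1.84 and 1.23 for wing over gland and 1.47 and 1.71 for leg over gland in the authors' deposited tables. The inhibitory Smad gene Dad had one at 0.16 ± 0.40 for wing over gland and 0.12 ± 0.43 for leg over gland in the authors' deposited tables.

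For Wnt signalling and planar polarity it was 4 of 14 genes (fz, fz2, nkd and ds), with 9 sites, of which 8 were called higher in wing than gland and 6 higher in leg than gland. In ds, a protocadherin gene of planar polarity and growth, the site at 2L:669810-670045 had 6.33 in the wing and 17.0 in the leg, with a wing over leg value of -1.07 ± 0.40 (adjusted p = 0.17) in the authors' deposited table. For Notch and EGFR it was 3 of 14 genes (Delta, Ser and pnt) with 4 sites, of which 3 were called higher in wing than gland and 3 higher in leg than gland. For the Hippo growth pathway it was 3 of 10 genes (ex, Diap1 and the microRNA gene mir-ban) with 3 sites, of which 3 were called higher in wing than gland and 1 higher in leg than gland. Beside these 3 lists stand the same shares, 62.4% for wing and 59.6% for leg of all 537, and 28.7% for wing and 29.6% for leg of all tested sites. A site of any kind lay at 8 of the 16 Dpp and Hedgehog genes and 6 of the 14 Wnt and polarity genes. For Notch and EGFR it was 9 of the 14 and for Hippo 5 of the 10.

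Of 22 genes of wing identity and veins, hth alone had disc-shared sites, and of 22 genes of leg identity and the proximodistal axis bab1, hth and bowl had them, with 8 sites, of which 6 were called higher in wing than gland (62.4% of all 537, 28.7% of all tested) and 6 higher in leg than gland (59.6% of all 537, 29.6% of all tested). A site of some kind lay at 7 genes of the wing list and 9 of the leg list. None of 8 Hox genes had a disc-shared site, though 2 had a site of some kind. The homeobox gene hth held 4 sites, and that at 3R:10512525-10512664 had 2.68 ± 0.75 for wing over gland and 3.09 ± 0.76 for leg over gland in the authors' deposited tables. Its wing over leg value was -0.41 ± 0.46 (adjusted p = 0.78) in the authors' deposited table.

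Genes of disc eversion and matrix had 5 of 19 with a disc-shared site (Sb, Np, dpy, zip and Ppn), with 8 sites, of which 6 were called higher in wing than gland (62.4% of all 537, 28.7% of all tested) and 5 higher in leg than gland (59.6% of all 537, 29.6% of all tested). Their medians were 2.097 for wing over gland and 1.65 for leg over gland, beside 1.32 each for all 537, in the authors' deposited tables. Sb, a transmembrane protease gene needed for disc eversion, had a site at 3R:16141994-16142196 with 10.9 in the wing and 9.51 in the leg. It had 2.33 ± 0.44 for wing over gland and 1.22 ± 0.47 for leg over gland in the authors' deposited tables. The apical matrix gene dpy had one with 2.27 ± 0.62 for wing over gland and 2.26 ± 0.65 for leg over gland in the authors' deposited tables. In zip, the nonmuscle myosin heavy chain gene, the site had 0.42 ± 0.40 for wing over gland and -0.33 ± 0.44 for leg over gland in the authors' deposited tables. Of the 19 genes, 11 had a site of any kind.

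Cell death and autophagy had 3 of 18 genes (hid, Diap1 and E2f1) and the cell cycle 2 of 14 (stg and E2f1), each with 8 sites, 6 of which are the same E2f1 sites. Of the 8, those called higher in wing than gland were 5 for cell death and 4 for the cell cycle, and those called higher in leg than gland 3 for cell death and 4 for the cell cycle. The shares of all 537 were 62.4% for wing and 59.6% for leg, and those of all tested sites 28.7% for wing and 29.6% for leg. A site of any kind lay at 10 of the 18 cell death genes and 3 of the 14 cell cycle genes. The cuticle and apical matrix list had 1 of 13 genes with a disc-shared site (pio), and that of salivary gland identity and secretion 2 of 14 (CrebA and Pdi). Sites of any kind lay at 5 of the 13 and 6 of the 14. The secretory transcription factor gene CrebA had a weak site, with 6.19 in the wing and 6.04 in the leg, that was not called in any comparison. The Pdi site had 15.1 in the wing and 21.6 in the leg. It was called higher in wing than gland and higher in leg than gland, beside the same shares of all 537 and of all tested sites.

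Markers of other cell types that a dissection could carry along were listed as well. Binding at a gene does not measure its expression or the presence of a cell type. Over the gene table, 364 of 13962 coding genes had a disc-shared site within 2000 bp, and nothing is read from the marker counts against that share. Of 8 fat body markers Lsp1gamma had one, 475 bp outside its span, with 3.93 in the wing and 11.3 in the leg. It was called higher in wing than gland and higher in leg than gland. Of all 537, 62.4% were called so for wing and 59.6% for leg (28.7% and 29.6% of all tested sites). Of 8 muscle markers twi had one, called neither against the gland nor between the discs. None of 7 haemocyte, 7 tracheal and 7 neuronal markers had one. Sites of some kind lay at 5 fat body, 5 muscle, 4 tracheal, 2 haemocyte and 2 neuronal markers.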

How the data were processed

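EcR binding was measured by CUT&RUN, with libraries from the Takara ThruPLEX kit per the labels. Per the submitters' processing notes, the build was dm6 and the tools included MACS2 2.1.2, Bowtie2 2.3.4.1, DESeq2 without a version, R 3.5.2, Picard 2.2.4, bedtools 2.26 and SAMtools 1.9; order and settings are not known. The list names, as deposited, tell of merged replicates, trimming, duplicate removal and fragments of 20 to 120 bp.

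The authors deposited, for each peak, a fold enrichment as a linear ratio, the −log10 of its q-value, and a summit offset in bp, which is an other kind of value. In the 3 comparison tables the authors deposited a mean normalised count, a signal over the libraries fitted, a log2 fold change with its standard error, a Wald score, and a p-value with its adjusted value. Neither labels nor headers say which libraries were fitted. Counts per library were not analysed here, so the count test planned was replaced by the authors' adjusted p with a threshold of 0.05, and depth per library is unknown.

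Sites were classed by the authors' overlap flags, which equalled the overlap of at least 1 bp computed here at all 3463 sites. A site took the strongest overlapping peak of each list. Shares have exact (Clopper-Pearson) 95% intervals. For centring, the arms' median fold change over the standard error was taken from the Wald score. Normal p-values were then adjusted again (Benjamini-Hochberg) over all sites of a table. Centring was tried on simulated data with the wing over leg standard errors and as many changes up as down. The gland comparisons were not simulated, so their centred counts were not tested in this way. RefSeq's gene table of the same assembly (17872 genes, 13962 coding) gave the spans, and a site belonged to a gene whose span it lay in or within 2000 bp of. Table starts equalled 0-based peak starts, so 1 was added. The planned motif search needs the genome sequence and was not run, and no sequence is printed.

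The members and the 18 gene lists were chosen with earlier results of these data known. The named sites are the 10 with the highest fold enrichment in each disc, the called sites between the discs, the 10 with the highest lesser value against the gland, those at listed genes or at genes with 4 or more, and the 5 strongest with a gland pellet peak. Sites named for other reasons (the uncalled differences between the discs and the weakest peaks) were picked after their values were seen. Python 3.11.15, pandas 2.3.3, numpy 2.4.6, scipy 1.17.1 and matplotlib 3.10.9 were used.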

Additional observations from a re-analysis of the deposited data

Results flagged for a closer look

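At 11 disc-shared sites the 2 discs were called different, by the authors' adjusted p for wing over leg in the deposited table. That adjusted p tests the difference itself. The 11 are 2.05% of the 537, and of all 3327 tested sites 49 (1.47%) were called in either direction. Higher in wing were 8, with log2 fold changes in the authors' deposited table of 1.62 in Msr-110, 1.60 in sick, 1.31 near mab-21, 1.19 in Snoo, 1.10 in Hr4, 1.09 in CG10359, 1.05 in CG1688 and CG1698, and 1.05 in LRP1. Higher in leg were 3, with -2.11 near CG34347, -1.36 in CG17834 and -1.08 in psq in the authors' deposited table. For all but LRP1, no peak of the gland pellet overlapped the site. Without values per library, no sample was checked against the others of its group.

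The gland pellet list, which chose no member, held a peak at 20 of the 537 sites. Among the 20 were 2 sites each in tara, nmo and Eip75B. Of these, the site in tara at 3R:16228930-16229097 was called higher in the gland than in either disc by the authors' adjusted p in the deposited tables. Peaks of control samples were not analysed here.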

How the results depend on the processing

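Of 59 recomputed values that describe the class, 44 kept within their limits and 15 did not, and none changed direction. The cause was not tested. For a median log2 fold change the limit was the median standard error of single sites, which is wide for a median over many sites. Within it, centring took the median of wing over leg from 0.015 to 0.209 and that of leg over gland from 1.32 to 0.926. Asking for a −log10 q of 10 or more in both discs left 233 sites. Of these, 197 were called higher in wing than gland, 186 higher in leg than gland and 4 higher in wing than leg. The shares of all tested sites called so were 28.7%, 29.6% and 0.571%. These counts are out of 233 sites and not 537, so a lower count is not a lower share. Centring gave 15 of the 537 higher in wing than leg (1.39% of all tested sites) and 198 higher in leg than gland (17.9% of all tested sites). An adjusted p under 0.01 left 2 higher in wing than leg (0.331% of all tested sites). The wing pellet share was 98.7% with the stricter q, 90.8% for sites whose mean reached the table median and 72.8% when the larger part of the site had to overlap. The leg pellet share was 69.96%, 50.7% and 25.7% under the same settings, and the gland pellet share 6.01% with the stricter q and 1.68% with the larger overlap. Of 44 checks of single sites, 8 lost the call, 7 of them at an adjusted p under 0.01 and that in psq after centring. The 11 checks that asked for an absolute log2 fold change of 1 or more could not fail, since every called site already exceeded it. Adjusting again over sites whose mean reached the table median lowered the adjusted p at all 11 sites. The number of checks passed is therefore no measure of robustness. Leaving out 2R below 5 Mb, chosen after seeing the data, left 535 sites. No paired analysis was possible, because the lists pool the replicates and the comparison tables hold no values per library. Leaving out a replicate could not be done for the same reason. The motif alternatives were not run. Depth per library is unknown, so a site without a gland peak may be one below the calling limit of that list.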

Other observations

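Close to the centromere of 2R, which the rule does not leave out on that arm, lay a pair of disc-shared sites with high mean counts and low fold enrichments. The site at 2R:1234340-1234438 had a mean normalised count of 415 and that at 2R:1233608-1233757 one of 152 in the authors' deposited tables. Their fold enrichments were 3.01 in the wing and 3.63 in the leg at the first, and 1.95 in the wing and 1.98 in the leg at the other. Such values were not limited to the pair: a site on X (X:9881216-9881327) had a mean of 127.4 in the authors' deposited tables, with fold enrichments of 2.86 in the wing and 3.15 in the leg.

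Pellet peaks moved with the balance between the discs. The 223 sites with a wing pellet peak alone had a median wing over leg value of 0.18, the 213 with both one of -0.09, the 89 with neither one of -0.20 and the 12 with a leg pellet peak alone one of -0.81 in the authors' deposited table. Neither labels nor headers say whether pellet libraries entered that table.

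Neighbours of other kinds were common as well: 134 disc-shared sites had a site of the leg alone within 5000 bp, 106 one of the wing alone and 109 one shared by all 3 tissues.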
